A study of Mus musculus with 4 samples.

Results

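CoREST is a nuclear corepressor complex, and 9 genes that encode its scaffold, its enzymes and their structural partners are described here in erythroid progenitors of mouse embryos labelled as Rcor1 mutant or control. The genes were chosen by symbol: the scaffold genes Rcor1, Rcor2 and Rcor3, the demethylase gene Kdm1a, the histone reader gene Phf21a, the deacetylase genes Hdac1 and Hdac2, and the partner genes Hmg20b and Gse1. All 9 were found among the 35927 gene rows with counts, and all 9 passed the filter on low counts, which left 13140 genes tested.

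Messenger RNA was sequenced from C57BL/6 fetal liver cells of age E13.5, sorted for surface CD71 (the transferrin receptor) and against TER119 (a marker of later red cell precursors). The mutant group was Rcor1-/-. The control group joined Rcor1+/+ and Rcor1+/- embryos (proportion not given in the sources used here), and a control level is therefore not a purely wild-type level. Each group had 2 libraries, each from the pooled RNA of several livers. The make of the mutant allele, and whether a truncated transcript remains, were not available from the labels used here.

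As background, the scaffold protein joins both enzyme activities of the complex. Its ELM2 and SANT domains bind Hdac1 or Hdac2, which remove acetyl groups from histones, and its linker and the other SANT domain hold Kdm1a, which removes methyl groups from lysine 4 of histone H3. In blood cells the repressors Gfi1 and Gfi1b bring the complex to their target genes, and erythroid maturation depends on it.

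Library totals ran from 15053229 to 26892375 counts. Levels are given as CPM, the count rescaled to a common library size with TMM factors, and an SD is over n = 2 libraries. Changes are log2 fold changes, positive where the mutant was higher, with the standard error from edgeR's quasi-likelihood test, and an adjusted p is that test's Benjamini-Hochberg value over all 13140 genes, called below 0.05. Low spread between pooled libraries lets small changes pass: 57.5% of all genes tested were called, 28.3% higher and 29.2% lower in the mutant, and in 77.9% the CPM of the groups did not overlap. Against that background, 2 of the 9 CoREST genes were higher, 5 were lower and 2 did not pass, with a median change of -0.26 beside 0.01 for all genes. The 5 lower genes include Rcor1, the gene that the labels give as mutated. With library totals alone as the scale, the median of all genes moved to 0.15 and that of the 9 genes to -0.12, with 2 higher and 4 lower where 58.3% of all genes were called.

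The markers of the sorted cells were present. Of 6 erythroid progenitor markers, 5 were lower in the mutant and Kit did not pass, and their summed level was 3707 to 3847 CPM in controls and 2533 to 2583 CPM in mutants. Summed markers of other cells were higher in the mutant, and called higher were 7 of 10 tested hepatoblast markers, 5 of 6 stem and myeloid, 4 of 6 megakaryocyte, 3 of 7 endothelial and 2 of 8 macrophage markers, the last below the 28.3% of all genes. Called lower were Vwf in the megakaryocyte list (-0.59, adjusted p = 1.69e-05) and Elane in the stem and myeloid list (-0.87, adjusted p = 0.00331). The hepatoblast list took 931 to 943 CPM in controls and 1275 to 1289 CPM in mutants, the stem and myeloid list 48.0 to 48.9 and 170.1 to 173.1, the megakaryocyte list 94.3 to 96.1 and 192 to 198, the macrophage list 17.9 to 18.1 and 25.1 to 25.4, and the endothelial list 159.7 to 161 and 164 to 166. Most of the endothelial sum came from Egfl7, at 150.1 CPM in controls and 140.1 CPM in mutants (-0.10, adjusted p = 0.0875). The 3 endothelial markers called higher were far scarcer, and changed by 3.05 (Tek), 2.15 (Pecam1) and 1.22 (Kdr). The other 4, Egfl7 among them, did not pass, so the endothelial sum says little about the scarcer markers. The macrophage marker Cd163 had no count in any library. The part of such cells in the changes below was not tested, and in bulk RNA a change in the mix of cells cannot be told apart from a change in RNA per cell.

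Rcor1 (ENSMUSG00000037896) is the gene that the labels give as mutated. It lies on chromosome 12 (GRCm38, 111039351 to 111115901, plus strand). Its level was 159.6 and 174 CPM in the control libraries and 77.8 and 78.8 CPM in the mutant libraries, so every mutant library lay below every control library. The change was -1.09 ± 0.06 (95% interval -1.21 to -0.97, adjusted p = 4.6e-11), which left 46.9% of the control level. Counts are summed over the whole gene and do not show which part of Rcor1 the 2061 and 1240 mutant reads came from, so this lower level alone does not show the genotype.

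**Figure D1:**
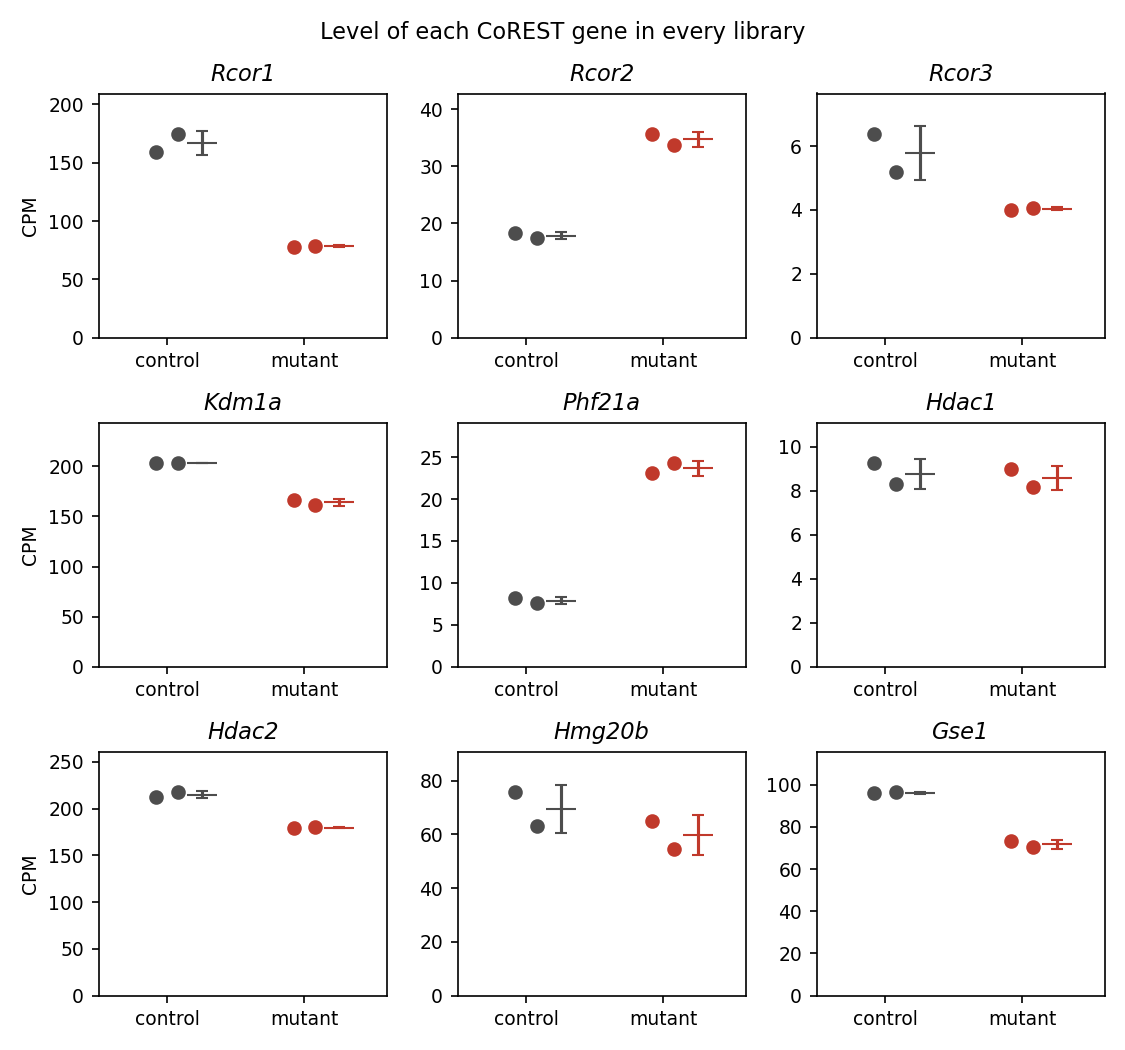
Level in CPM (y axis, from 0, scaled per panel) of each CoREST gene in control and mutant libraries. Points are libraries and bars the mean ± SD of 2 libraries. The groups lie apart in every panel but those of Hdac1 and Hmg20b, as they did in 77.9% of all genes tested.

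Rcor2 and Rcor3 encode proteins related to Rcor1 that can also bind Kdm1a, and the 2 paralogs moved in opposite directions. Rcor2 (ENSMUSG00000024968, chromosome 19, GRCm38, 7267325 to 7275225, plus strand) is known for its expression in embryonic stem cells and neural progenitors. It had 18.3 and 17.4 CPM in controls and 35.6 and 33.8 CPM in mutants. The mutant libraries were both higher, a change of 0.96 ± 0.08 (95% interval 0.79 to 1.14, adjusted p = 3.88e-08), or 1.95-fold. Rcor3 (ENSMUSG00000037395, chromosome 1, GRCm38, 192098546 to 192138062, minus strand) was scarcer, at 6.37 and 5.18 CPM in controls and 4.00 and 4.07 CPM in mutants. Its mutant libraries were both lower (-0.53 ± 0.16, 95% interval -0.87 to -0.18, adjusted p = 0.0116). That call rested on few counts: 163 and 113 (controls), 106 and 64 (mutants). It was lost without control replicate 1 (-0.37, adjusted p = 0.148) and without mutant replicate 1 (-0.51, adjusted p = 0.0777), and over all settings its adjusted p ran from 0.00101 to 0.148.

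The split of counts between the paralogs differed between the groups. These shares are of counts, to which a longer transcript adds more, and serve to compare libraries, not genes. Rcor1 took 86.6% of the counts of the 3 paralogs in control replicate 1 (Wilson 95% interval 85.6 to 87.6) and 88.5% in control replicate 2 (87.5 to 89.5). In the mutant libraries it took 66.2% (64.6 to 67.9) and 67.5% (65.4 to 69.6). Rcor2 took 9.93% and 8.84% in controls and 30.3% and 29.0% in mutants. The intervals cover counting error only. The mean difference in the Rcor2 share was 20.3 percentage points, against SDs of 0.771 and 0.967 within the groups. An exact two-sided permutation test of 2 against 2 libraries gave p = 0.333, the smallest it allows. Rcor1 makes up most of the summed counts, so its lower level in the mutants by itself raises the Rcor2 share. The level of Rcor2 itself was also higher, at a mean of 17.9 CPM in controls and 34.7 CPM in mutants, which raises the share as well. The share difference thus restates the changes of both genes and is not a separate result. The Rcor3 share was 3.46% and 2.63% in controls and 3.41% and 3.49% in mutants, and its groups overlapped (exact permutation p = 0.667).

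**Figure D2:**
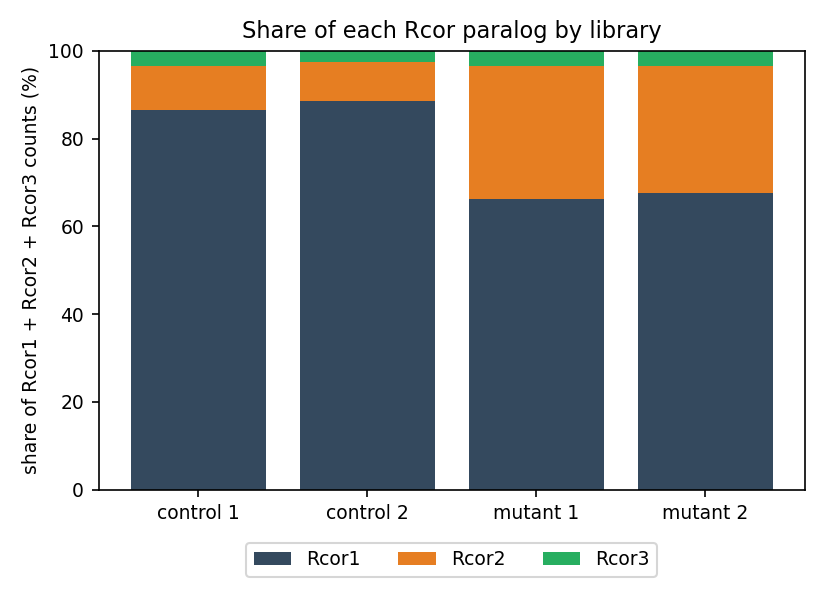
Share of the summed Rcor1, Rcor2 and Rcor3 counts (y axis, percent) taken by each paralog in each of the 4 libraries. The Rcor2 share is 8.84% to 9.93% in controls and 29.0% to 30.3% in mutants.

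The summed CPM of the paralogs, in which Rcor1 weighs more by its length, was lower in the mutants. Together the 3 paralogs had 184 and 197 CPM in controls and 117.4 and 116.7 CPM in mutants, and Rcor2 plus Rcor3 had 24.7 and 22.6 CPM in controls and 39.6 and 37.9 CPM in mutants. Levels of different genes can be compared only per length. Per kilobase of exon in the GENCODE gene models, Rcor1 averaged 29.4 CPM in controls and 13.8 in mutants, and Rcor2 averaged 6.32 in controls and 12.3 in mutants. Rcor1 was thus 4.65 times as high as Rcor2 per kilobase in controls and 1.12 times as high in mutants. On that scale Rcor2 made up 17.1% of the summed paralog level in controls and 45.5% in mutants. The mutant values divide Rcor1 reads of unknown position in the gene by its full exon length. They therefore do not count whole Rcor1 transcripts.

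Phf21a, known as BHC80, reads histone H3 that is unmethylated at lysine 4, the product of Kdm1a, and showed the furthest change of the 9 genes. It (ENSMUSG00000058318) lies on chromosome 2 (GRCm38, 92093117 to 92364666, plus strand). Its level was 8.17 and 7.61 CPM in controls and 23.1 and 24.3 CPM in mutants. Both mutant libraries were higher, by 1.58 ± 0.10 (95% interval 1.36 to 1.80, adjusted p = 9.49e-10), or 2.99-fold. Among all genes tested, 92.8% had a smaller log2 fold change than Phf21a and 87.6% a smaller one than Rcor2. For the genes called lower, the same share was 1.48% for Rcor1, 9.43% for Rcor3, 14.7% for Gse1, 22.5% for Kdm1a and 26.3% for Hdac2. Rcor2 and Phf21a kept their calls in all 13 other settings, with changes from 0.91 to 1.10 and from 1.52 to 1.72. Both genes are also expressed in brain. The summed level of 6 neuronal markers was at most 1.65 CPM in controls and 2.79 to 3.43 CPM in mutants, and Snap25 and Neurod1 had no count in any library. Syp was called higher on 15 and 11 against 37 and 22 counts (1.34, adjusted p = 0.00228), and Tubb3 did not pass (0.63, adjusted p = 0.0795). The part of such cells in the Rcor2 and Phf21a values was not tested.

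The promoters of Rcor2 and Phf21a are shown because these are the members that rose. The windows are the 250 bases before a RefSeq start site (build GRCm38.p6, plus strand in both, 5′ to 3′), chr19:7267144-7267393 for Rcor2 and chr2:92185233-92185482 for the upstream of 2 entries of Phf21a. Capitals mark AATC, the core of Gfi1 and Gfi1b sites, on either strand (GATT on the strand shown). GATAA, a core of GATA factor sites, was also searched on both strands.
Rcor2: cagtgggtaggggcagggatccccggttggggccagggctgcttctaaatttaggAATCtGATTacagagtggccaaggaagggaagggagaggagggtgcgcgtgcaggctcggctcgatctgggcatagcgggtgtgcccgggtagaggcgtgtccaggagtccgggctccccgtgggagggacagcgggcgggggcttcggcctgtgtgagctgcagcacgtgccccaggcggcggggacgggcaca
Phf21a: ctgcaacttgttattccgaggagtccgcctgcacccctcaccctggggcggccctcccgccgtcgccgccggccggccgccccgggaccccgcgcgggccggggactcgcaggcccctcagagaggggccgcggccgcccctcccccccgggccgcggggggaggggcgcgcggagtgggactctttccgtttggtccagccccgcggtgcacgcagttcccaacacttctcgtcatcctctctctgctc
The Rcor2 window holds AATC 2 times, side by side on opposite strands, and no GATAA. The Phf21a window shown holds neither motif, and its downstream entry holds AATC 1 time. Both Phf21a windows lie inside the GENCODE gene, which starts at 92093117, and the bases before that start were not searched. In windows of this length AATC was found in 69.0% of 32851 RefSeq promoters and GATAA in 22.6%, so an AATC match is common. AATC also occurred 2 times before Hmg20b, which did not pass, and 1 time before Kdm1a and 2 times in 1 of 3 entries of Gse1, which were lower. The 2 Phf21a windows differ in base composition, with 75.6% G or C upstream and 30.8% downstream, and the counts do not show which start site was used.

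Kdm1a, the demethylase, fell slightly. It (ENSMUSG00000036940) lies on chromosome 4 (GRCm38, 136550540 to 136602723, minus strand). Its level was 203 CPM in both control libraries and 166 and 162 CPM in the mutant libraries. The mutants were lower by a small amount that exceeded the spread between libraries (-0.31 ± 0.05, 95% interval -0.41 to -0.21, adjusted p = 2.52e-05), at 80.8% of the control level. Within a library, where scaling cancels, the log2 ratio of Kdm1a to Rcor1 counts was 0.35 and 0.22 in controls and 1.09 and 1.04 in mutants. Kdm1a itself was lower in the mutants, so this higher ratio follows from the lower count of Rcor1, the gene labelled as mutated. The log2 ratio of Phf21a to Kdm1a counts was -4.64 and -4.74 in controls and -2.85 and -2.74 in mutants, a mean difference of 1.89. In neither ratio did the groups overlap (exact permutation p = 0.333 for each).

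The deacetylases Hdac1 and Hdac2 are near-interchangeable enzymes that fill the same place in the complex. Hdac2 (ENSMUSG00000019777, chromosome 10, GRCm38, 36974544 to 37001889, plus strand) had 212 and 217 CPM in controls and 179 and 180.0 CPM in mutants. Both mutant libraries were lower (-0.26 ± 0.05, 95% interval -0.36 to -0.16, adjusted p = 0.000132). That change lay within the 25th to 75th percentile of all genes tested, -0.27 to 0.40. Hdac1 (ENSMUSG00000028800, chromosome 4, GRCm38, 129516104 to 129542713, minus strand) had 9.26 and 8.30 CPM in controls and 8.98 and 8.20 CPM in mutants. Its groups overlapped, and the change did not pass (-0.02 ± 0.13, adjusted p = 0.886). The 95% interval of -0.29 to 0.24 still contains the change measured for Hdac2.

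The Hdac1 level as counted is uncertain, because a processed pseudogene, Gm10093 on chromosome 17 (GRCm38, 78491582 to 78493025, plus strand), carries almost the same coding sequence. Over 1444 aligned bases, all in the Hdac1 coding sequence of 1446 bases, 9 differed and none was inserted or deleted (99.4% identity). The 60 coding bases with the most differences, bases 423 to 482 of the Hdac1 coding sequence, are shown with the differing bases in capitals.
Hdac1: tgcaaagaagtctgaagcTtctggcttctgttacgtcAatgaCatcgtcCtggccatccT
Gm10093: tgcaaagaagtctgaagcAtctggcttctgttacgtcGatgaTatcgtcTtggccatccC
This window holds 5 of the 9 differences, so over most of the coding sequence a short read cannot be assigned to 1 copy. Of all 36-base windows in the Hdac1 transcript, 61.8% also occur in another gene, and of 75-base windows 52.5%. The Gm10093 row held 283 and 215 control counts and 269 and 157 mutant counts, and the Hdac1 row 237 and 181, then 238 and 129. Read length and the treatment of reads with several matches were not stated in what was used here. With both rows summed, the log2 ratio of Hdac2 to Hdac1 counts was 3.38 and 3.58 in controls and 3.23 and 3.31 in mutants, and with Hdac1 alone 4.52 and 4.71 in controls and 4.32 and 4.46 in mutants.

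**Figure D3:**
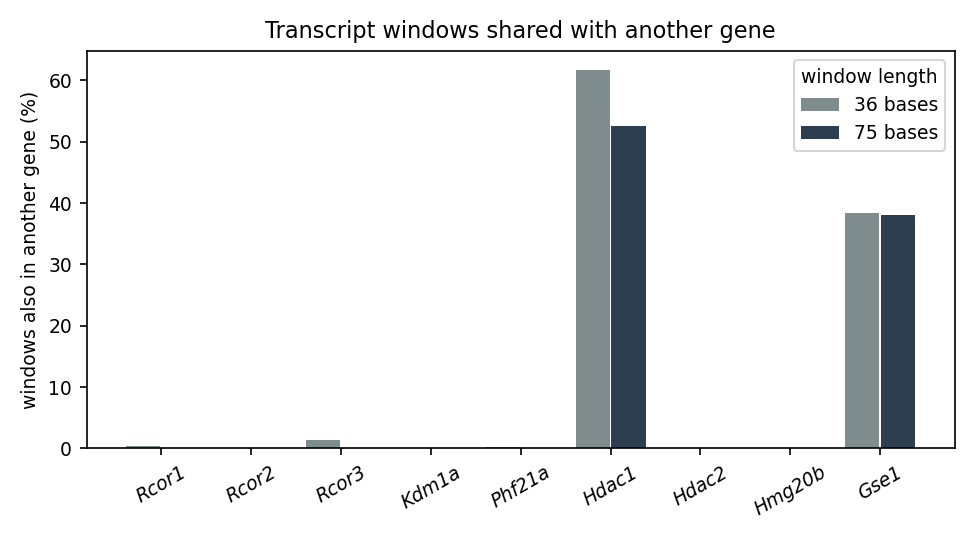
Percent of all 36-base (grey) and 75-base (dark) windows of 1 transcript per gene that also occur, on either strand, in a transcript of another gene (GENCODE M21). Hdac1 (61.8% and 52.5%) and Gse1 (38.4% and 38.1%) stand above the other genes, of which Rcor3 has the highest value (1.38% at 36 bases).

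Hmg20b and Gse1 are structural partners. Hmg20b encodes a protein with an HMG box, a domain that binds DNA. It (ENSMUSG00000020232) lies on chromosome 10 (GRCm38, 81346048 to 81350480, minus strand). It had 75.7 and 63.2 CPM in controls and 65.0 and 54.5 CPM in mutants. The groups overlapped and the change did not pass (-0.21 ± 0.11, 95% interval -0.45 to 0.03, adjusted p = 0.121). With a library left out, the change was -0.35 without control replicate 2 (adjusted p = 1.41e-05) and -0.35 without mutant replicate 1 (adjusted p = 0.0185). With all 4 libraries it also passed with the replicate number as a block (-0.22, adjusted p = 0.000213) and with no filter beyond 1 count (-0.25, adjusted p = 0.00149), and over all settings the adjusted p ran from 1.41e-05 to 0.577.

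Gse1 (ENSMUSG00000031822) encodes a coiled-coil protein that copurifies with the complex, and lies on chromosome 8 (GRCm38, 120228456 to 120581390, plus strand). It had 95.9 and 96.4 CPM in controls and 73.1 and 70.2 CPM in mutants. Both mutant libraries were lower (-0.42 ± 0.06, 95% interval -0.54 to -0.30, adjusted p = 6.81e-06). In the GENCODE models the end of Gse1 overlaps Gins2, a replication gene on the opposite strand, and 38.1% of the 75-base windows of Gse1 are shared with another gene, most of them with Gins2. Gins2 changed by -0.47, from 130.4 to 93.7 CPM. Whether counting used strand was not stated in what was used here, and reads of Gse1 and Gins2 from the overlap cannot be told apart.

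**Figure D4:**
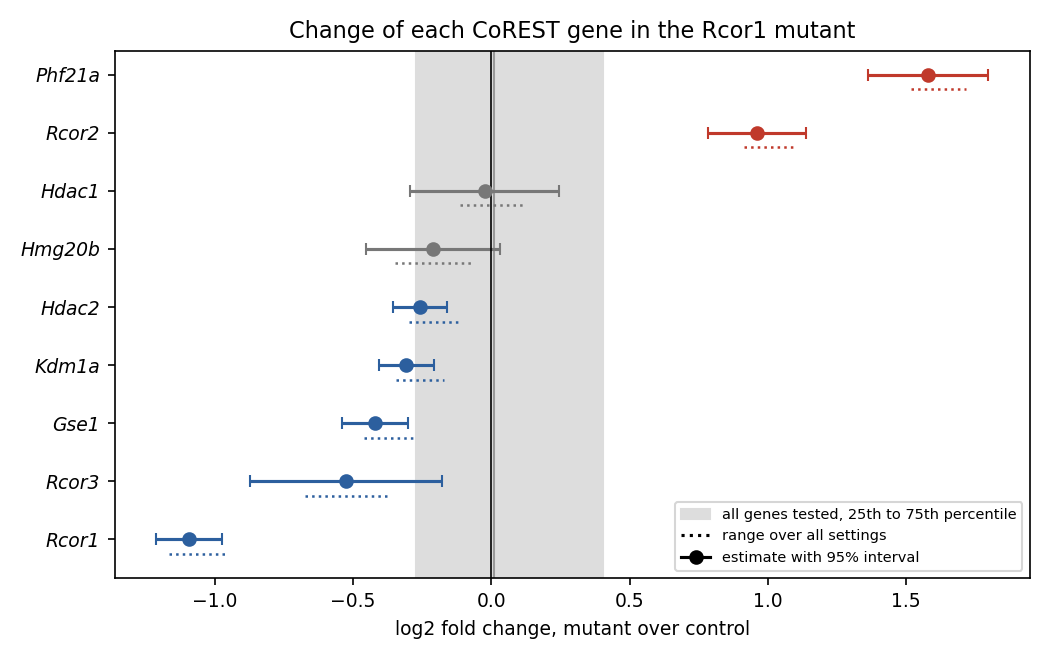
Log2 fold change, mutant over control (x axis), for each CoREST gene, with its 95% interval (bar) and the range over all settings (dotted). Red is higher, blue lower and grey not passed; the shaded band is the 25th to 75th percentile of all genes tested, -0.27 to 0.40. Phf21a and Rcor2 lie to the right of the band and Rcor1 farthest to the left.

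Per kilobase of exon, the order of levels in controls was Kdm1a (66.2), Hdac2 (50.7), Hmg20b (38.7), Rcor1 (29.4), Gse1 (13.1), Rcor2 (6.32), Hdac1 (4.31, as counted), Rcor3 (1.33) and Phf21a (1.12), in CPM per kilobase. In mutants the values in the same gene order were 53.5, 42.4, 33.3, 13.8, 9.74, 12.3, 4.22, 0.93 and 3.37. Rcor2 thus stood above Gse1, and Phf21a above Rcor3, in the mutant order. The Gse1 level is also as counted, since reads from its overlap with Gins2 cannot be told apart. No neighbours in either order had overlapping libraries. The order also depends on the gene models: with the length of the transcript that has the longest coding sequence, Hdac2 had 107 in controls and Kdm1a 67.1, which puts Hdac2 above Kdm1a, and Rcor3 had 3.13 in controls, further above Phf21a at 1.25. Rcor1 over Rcor2 was 1.12 in mutants with either length, both of which take the Rcor1 reads as from a whole transcript.

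The authors' deposited table gave the same directions for 8 of the 9 genes, with changes of 1.72 for Phf21a, 1.10 for Rcor2, -0.96 for Rcor1, -0.39 for Rcor3, -0.29 for Gse1, -0.17 for Kdm1a, -0.12 for Hdac2 and -0.07 for Hmg20b. For Hdac1 the authors' deposited table gave 0.11. Over 12247 genes in both tables and flagged in neither group, the authors' deposited table lay above the values given here by a median of 0.14. Library totals alone as the scale gave 0.11 for Hdac1 and -0.96 for Rcor1. At adjusted p below 0.05, the authors' deposited table held 4983 higher and 2338 lower rows, beside 3723 and 3835 genes here. The adjusted p of the authors' deposited table was 0.0494 for Kdm1a, 0.0394 for Rcor3 and 0.199 for Hdac2.

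Genes with the most similar profile were taken from 8341 genes of at least 10 CPM on average, by Euclidean distance between centred log2 CPM values of the 4 libraries. Nearest to Rcor1 were Pnpla7 (distance 0.06, change -1.09), Gm16515 (0.07, -1.06) and Ift140 (0.08, -1.14). Nearest to Rcor2 were Cmtm7 (0.03, change 0.98), BC017647 (0.03, 0.94) and Ypel3 (0.03, 0.99). Nearest to Phf21a were Pkm2 (0.02, change 1.56), D330045A20Rik (0.05, 1.56) and S100a10 (0.06, 1.57). With 4 libraries in 2 groups, such likeness mainly restates a similar size of change.

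Of 19 genes whose products recruit or bind the complex, 16 were tested, and 6 were higher, 5 lower and 5 did not pass, with a median of 0.08. That is 37.5% higher and 31.3% lower, beside 28.3% and 29.2% of all genes tested. The methyl-lysine reader gene L3mbtl3 went from 5.30 ± 0.15 to 18.1 ± 0.63 CPM (1.77 ± 0.12) and the repressor gene Gfi1b from 509 ± 18.8 to 1368 ± 53.1 CPM (1.43 ± 0.04). The corepressor gene Ctbp1 fell from 1017 ± 3.44 to 706 ± 11.0 CPM (-0.53 ± 0.04) and Gtf2i, which encodes a general transcription factor, from 401 ± 0.75 to 285 ± 0.34 CPM (-0.49 ± 0.04). Insm1, Snai1 and Snai2 were too scarce to test. The count of lower genes was 3 under upper quartile scaling, with library totals alone and without mutant replicate 1. Over all genes tested, 3088, 2553 and 3200 were lower in those settings, in place of 3835. Gfi1, the paralog of Gfi1b, was called higher on few counts: 10 and 11 (controls), 33 and 15 (mutants).

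Of 9 other deacetylase genes, 3 were higher (Hdac6, Hdac11 and, on 6 and 8 against 30 and 12 counts, Hdac9), 3 lower (Hdac3, Hdac4 and Hdac10) and 3 did not pass, with a median of 0.03. At 33.3% in each direction, these shares are near those of all genes tested. Hdac11 went from 47.4 ± 1.18 to 67.5 ± 0.11 CPM (0.51 ± 0.07), and Hdac3, the enzyme of the NCoR complexes, from 174 ± 1.88 to 139 ± 3.02 CPM (-0.33 ± 0.05). Hdac6, a cytoplasmic tubulin deacetylase, changed by 0.44 ± 0.08, and Hdac4 by -0.42 ± 0.12; Hdac4 had a further row in the table that was not used here. The count of lower genes was 1 with DESeq2, where 3194 of all genes tested were lower in place of 3835. That count also moved without mutant replicate 1, a fit without replication of the mutant group.

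Hdac1 and Hdac2 also work in the Sin3, NuRD, MiDAC and Mier complexes. A list of 28 genes held subunits of those complexes and related partners of Hdac1 and Hdac2, such as Rere. Of these, 6 were higher, 15 lower and 7 did not pass, with a median of -0.20. That is 53.6% lower, beside 29.2% of all genes tested. With library totals alone 7 were higher and 11 lower, where 5112 of all 13140 genes were higher and 2553 lower. The NuRD genes Mta2 (from 937 ± 70.5 to 638 ± 16.0 CPM, -0.55 ± 0.05) and Mbd2 (-0.51 ± 0.05) led the falls. Chd3, a NuRD remodelling ATPase, was instead higher, at 39.2 ± 0.07 CPM in controls and 148 ± 2.71 CPM in mutants (1.92 ± 0.06), while its paralog Chd4 changed by -0.32 ± 0.04. Arid4b, a Sin3 partner, rose by 0.58 ± 0.10.

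Of 12 other demethylase genes, 2 were higher (Kdm3a, 0.54 ± 0.07, and Kdm4c, 0.30 ± 0.08), 5 lower and 5 did not pass, with a median of 0.001. That is 16.7% higher and 41.7% lower, beside 28.3% and 29.2% of all genes. With library totals alone 6 were higher and 3 lower, where 5112 of all 13140 genes were higher and 2553 lower. The count of higher genes also moved without mutant replicate 2, a fit without replication of the mutant group. Kdm2b fell by 0.83 ± 0.05 on the log2 scale and the H3K4 demethylase gene Kdm5c by 0.40 ± 0.04. Kdm1b, the only close relative of Kdm1a, changed by -0.35 ± 0.09 (adjusted p = 0.0033). A further list held 12 genes of H3K4 methyltransferases, their complex subunits or relatives, not all of which write that mark. Of these, 3 were higher, 5 lower and 4 did not pass, with a median of -0.12, or 25% higher and 41.7% lower. With library totals alone 5 were higher and 4 lower. Ash1l changed by 0.34 ± 0.08 and Mll1 by 0.26 ± 0.07, and Setd1b by -0.44 ± 0.07 and the shared subunit gene Wdr5 by -0.42 ± 0.04.

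**Figure D5:**
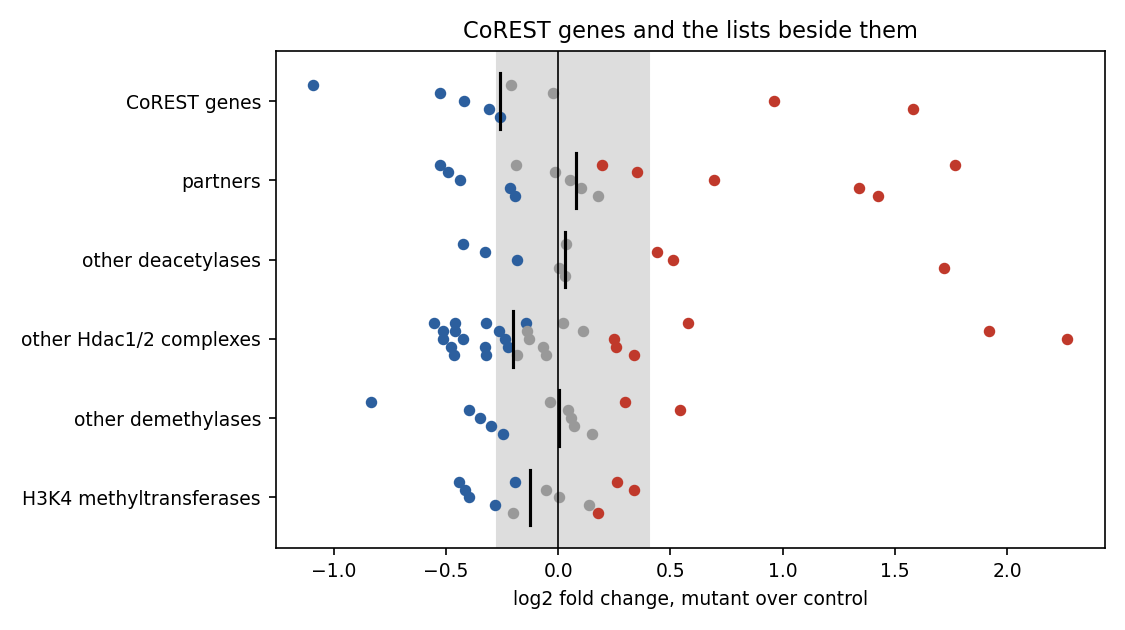
Log2 fold change, mutant over control (x axis), for the CoREST genes and 5 related lists, 1 point per gene tested (red higher, blue lower, grey not passed); black ticks are list medians and the band is the 25th to 75th percentile of all genes. The list medians lie between -0.26 for the CoREST genes and 0.08 for the partners.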

How the data were processed

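The labels assign 2 libraries each to control and mutant; per the labels, each pools several fetal livers and those of a group are biological replicates. The submitters' processing notes name FastQC, Bowtie, edgeR and the build mm9, without versions. The authors deposited raw counts per gene and, per the file headers, a comparison table of theirs (log2 fold changes, p-values). The columns named WT were matched to control samples by their numbers, since no group but the mutant remained. The 12 rows with NA were left out.

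Counts were fitted with edgeR 4.0.16 (R 4.3.3, limma 3.58.1): filterByExpr, TMM, estimateDisp, glmQLFit with robust, glmQLFTest, two-sided. The common dispersion was 0.00232. Standard errors were taken as |log2 fold change| divided by the root of the F statistic. The fit was tested on simulated data. DESeq2 1.42.0 and limma-voom were alternatives. Replicates differed by a chi-square per gene of 5.76 between controls and 3.67 between mutants, above the value near 1 of counting noise, and none was merged. Exon lengths, shared windows and the pseudogene alignment (Biopython 1.88) came from GENCODE M21 transcripts, and promoters from RefSeq, which held 8 of the 9 genes; both are GRCm38, not mm9, and the count files give no coordinates. The genes, lists and tests were chosen with earlier results of these data known. Named list genes were up to 2 risers and 2 fallers per list with the largest change among called genes with no overlap and at least 10 CPM, and all genes of a count of 5 or fewer could be named; Chd4 and Gfi1, outside that rule, were named as paralogs after their values were seen.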

Additional observations from a re-analysis of the deposited data

How the results depend on the processing

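Across scaling, filter, test, block and left-out libraries, Rcor1, Rcor2, Phf21a, Kdm1a, Hdac2 and Gse1 kept their direction and call in all 13 alternatives each. The size of the small falls depended on the scale. Kdm1a ran from -0.35 to -0.17, Hdac2 from -0.30 to -0.12 and Gse1 from -0.46 to -0.28, each smallest with library totals alone. Rcor3 missed the threshold with library totals alone (-0.39, adjusted p = 0.0519), with DESeq2 (-0.52, adjusted p = 0.119) and without control or mutant replicate 1 (-0.37 and -0.51; left-out range -0.67 to -0.37). Hmg20b passed with no filter beyond 1 count (-0.25, adjusted p = 0.00149), with the replicate block (-0.22, adjusted p = 0.000213) and without control replicate 2 or mutant replicate 1; left-out values ran from -0.35 to -0.082. Hdac1 never passed and changed sign under upper quartile scaling (0.052), with library totals alone (0.11) and without control replicate 1 (0.053) or mutant replicate 2 (0.037), over a left-out range of -0.11 to 0.053; summed with Gm10093 it did not pass either. That sum and the other gene length were chosen after seeing the data. The Rcor3 share difference, 0.40 percentage points, was -0.0112 without control replicate 2 and up to 0.819 without another library. The cause was not tested.

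With library totals alone, 2553 genes in all were lower in place of 3835, 3 partners and 3 demethylases lower in place of 5 each, and 6 demethylases and 5 methyltransferase genes higher in place of 2 and 3; 66.7% of calls were then higher, against 49.3%. Upper quartile scaling gave 3 lower partners, 5 higher demethylases and 58.9% higher calls. DESeq2 gave 1 lower deacetylase in place of 3, where 3194 of all genes tested were lower in place of 3835. With a library left out, which leaves a group without replication, the counts of lower partners, lower deacetylases and higher demethylases also moved. The replicate numbers are shared by label only: replicate differences of the groups had a correlation of 0.12 over genes, and the replicate block raised the calls to 4135 higher and 4267 lower. Depth limits Rcor3 and Hdac1, whose mutant counts were as low as 64 and 129.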
